A study of Ursus arctos with 12 samples.

Results

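The enzymes and regulators that make cholesterol and fatty acids were followed in thigh muscle of brown bears (Ursus arctos) across the seasons. The gene set listed 39 symbols, grouped by what the genes are known to do and chosen with earlier results of these data known. A gene was measured where the count table held a row under its symbol with at least 30 reads over the 12 libraries. This gave 37 genes out of 17290 tested: 17 enzymes of sterol synthesis, 13 enzymes of fatty acid synthesis and 7 regulators. IDI1 and CYP51A1 had no row under their symbols. The libraries came from biopsies of the vastus lateralis of 6 free-ranging bears, 2 to 3 years old, each sampled once in hibernation (winter) and once in the active period (summer). The study names no treatment or modified gene for these bears, which were captured and anesthetized for sampling. The same animals stood in both groups, so winter was compared with summer within 1 set of animals. Fasting, inactivity, the time of year and capture during hibernation came together in the winter biopsies and cannot be told apart.

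Cholesterol and fatty acids are both built from acetyl-CoA in the cytosol. In the sterol branch, acetyl-CoA is turned into mevalonate, then into isoprenoid units, squalene and lanosterol, and finally into cholesterol. In the fatty acid branch it is carboxylated to malonyl-CoA and assembled into palmitate, which is then lengthened and desaturated. The SREBP transcription factors switch on the genes of both branches when they are released from the endoplasmic reticulum, and the ChREBP factors switch on the fatty acid genes when glucose is plentiful. Skeletal muscle makes less fat than liver or adipose tissue, and malonyl-CoA in muscle is also known as the brake on fatty acid entry into mitochondria.

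Library depth, as reads counted on genes, was 20191068 to 27283155 in summer and 16742406 to 32140160 in winter. The creatine kinase gene CKM, a defining gene of muscle fibres, lay at 47260 to 83340 CPM (counts scaled to library size by edgeR's TMM method, the unit of all levels here) in summer and at 49096 to 80213 in winter, so the RNA was that of muscle, while the fibre genes MYH7 and MYL1 had no row under their symbols. The winter library of bear 1509 stood apart on the second principal component, at −98.6 against 6.35 to 23.1 for the other winter libraries. Transcripts of other cell types in the biopsies also moved with season, as given below for fat cells and further on for the rest. In whole tissue, fewer cells of a type and less RNA per cell cannot be told apart.

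In winter, fatty acid synthesis genes were lower almost throughout, while most sterol synthesis genes were not called. Of the 37 genes, 19 were lower and 3 higher in winter by edgeR's quasi-likelihood test at an adjusted p below 0.05, adjusted over all genes. This test had season as its only term and did not pair the libraries of a bear. Over all genes tested, 19.9% were lower and 19.6% higher by the same rule. The 19 lower genes were 12 of the 13 fatty acid enzymes, 4 of the 17 sterol enzymes and 3 of the 7 regulators, and the 3 higher genes were FDFT1, MSMO1 and SREBF1. In 7 of the 37 every winter library lay below every summer library, against 8.21% of all genes, and in 1, FDFT1, every winter library lay above, against 9.12%. All bears were lower in winter for 15 of the 37 genes and higher for 2. Over all 17290 genes tested, 6 of 6 bears were lower for 3285 and higher for 3183. The median log2 fold change of the 37 genes was −0.53, and that of all genes tested was −0.00. Without bear 1316, 15 of the 37 genes were lower and 3 higher. Calls over all genes also fell in that fit, to 2838 lower and 2817 higher, from 3445 and 3386 with all bears.

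**Figure D1:**
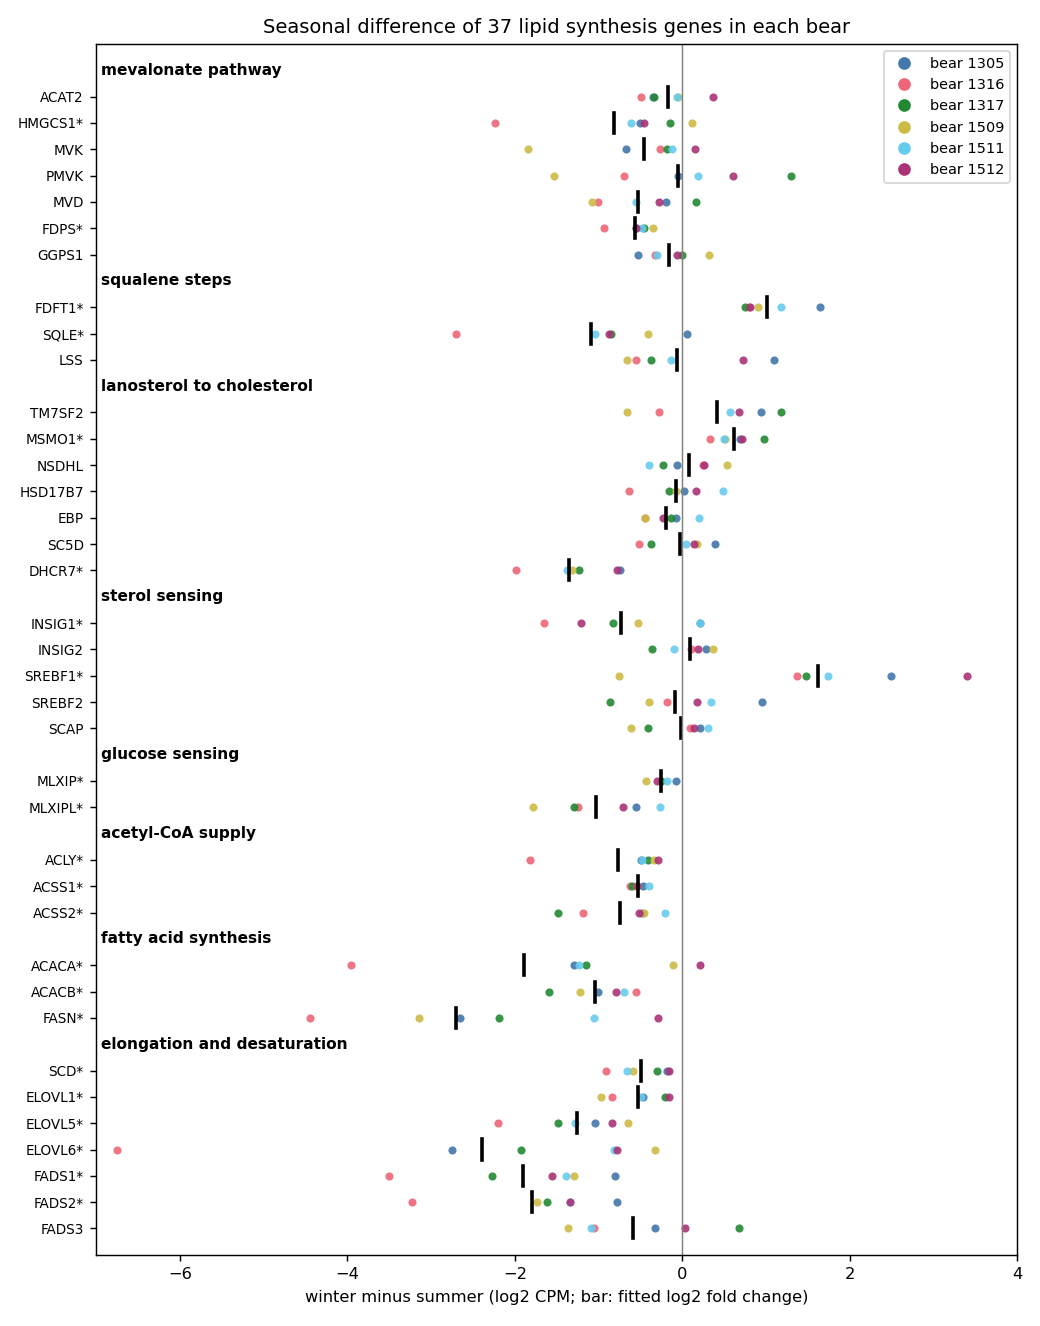
Winter minus summer difference in log2 CPM (prior count 2) of each of 37 genes, with 1 coloured point per bear, a black bar at the fitted log2 fold change and an asterisk for genes called at an adjusted p below 0.05. The fatty acid genes in the lower part lie left of 0 in nearly every bear, and the points of bear 1316 lie farthest left for many genes, down to −6.75 for ELOVL6.

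The branches lay apart in every animal. The median difference over the 13 fatty acid enzymes lay between −1.82 and −0.52 in individual bears, and that over the 17 sterol enzymes between −0.52 and 0.16. In 6 of 6 bears the fatty acid median was the lower. The summed level of the 13 fatty acid enzymes was 445, 555 and 896 CPM (lowest, median and highest) in summer. In winter it was 262, 300 and 337 CPM, so the seasons did not overlap in this sum. The 13 include ACSS1 and ACACB, which act in or at mitochondria. ACACB alone gave 136 to 305 CPM of the sum in summer and 90.2 to 122 CPM in winter. These medians and sums are descriptions of chosen genes and were not tested.

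Cytosolic acetyl-CoA comes from citrate through ACLY (ATP citrate lyase) or from acetate through ACSS2, while ACSS1 activates acetate in mitochondria. All 3 genes were lower in winter and in 6 of 6 bears. ACLY lay at 28.8, 36.9 and 97.1 CPM (lowest, median and highest here and for the other genes) in summer and at 23.5, 27.3 and 29.5 in winter. Its log2 fold change was −0.77 (standard error, SE, 0.25, adjusted p = 0.0232). The highest summer value was that of bear 1316, and without this bear the log2 fold change was −0.41 (adjusted p = 0.0168). ACSS2 fell from 96.5, 112 and 196 CPM to 55.3, 74.2 and 88.1, and ACSS1 from 18.4, 21.1 and 25.1 to 12.6, 14.8 and 16.5. For both, the lowest summer library lay above the highest winter library. Their log2 fold changes were −0.75 (SE 0.17, adjusted p = 0.00335) for ACSS2 and −0.53 (SE 0.10, adjusted p = 0.0013) for ACSS1. ACSS1 differed by a similar amount in each animal, from −0.62 to −0.40, whereas ACSS2 ranged from −1.49 to −0.20.

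The committed step of fatty acid synthesis is carried out by the acetyl-CoA carboxylases. ACACB is the form at the mitochondrial membrane that prevails in muscle, and ACACA is the cytosolic form of fat-making tissues. ACACB lay at 136, 185 and 305 CPM in summer and at 90.2, 96.8 and 122 in winter. The seasons did not overlap, and all 6 bears were lower in winter, by a log2 fold change of −1.04 (SE 0.19, adjusted p = 0.000823) with individual bears from −1.59 to −0.56. ACACA lay at 12.6, 27.2 and 184 CPM in summer and at 11.2, 12.3 and 19.0 in winter. It was lower in 5 of 6 bears, with individual bears from −3.95 to 0.21, and the 184 CPM of bear 1316 was 6.40 times the next summer value. The log2 fold change of ACACA was −1.89 (SE 0.55, adjusted p = 0.0148) with this bear and −0.75 (adjusted p = 0.0236) without it. In a fit that paired the libraries of each bear by a replicate block, called the paired fit below, it was −1.19 (adjusted p = 0.0488), but DESeq2 with the same block (−1.17, adjusted p = 0.0644) and limma voom (adjusted p = 0.0569) did not call it.

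FASN (fatty acid synthase), which assembles palmitate from malonyl-CoA, had the lowest log2 fold change of the 37 genes, −2.71 (SE 0.62, adjusted p = 0.0036), or a winter to summer ratio of 0.153. Its level was 7.08, 22.5 and 133 CPM in summer and 2.59, 5.21 and 13.8 in winter. All 6 bears were lower in winter, by −4.45 in bear 1316 and by only −0.29 in bear 1512, whose summer level was the lowest. The seasons overlapped, since the winter library of bear 1511, at 13.8 CPM, lay above the summer library of bear 1512. Without bear 1316 the log2 fold change was −1.77 (adjusted p = 0.0109).

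**Figure D2:**
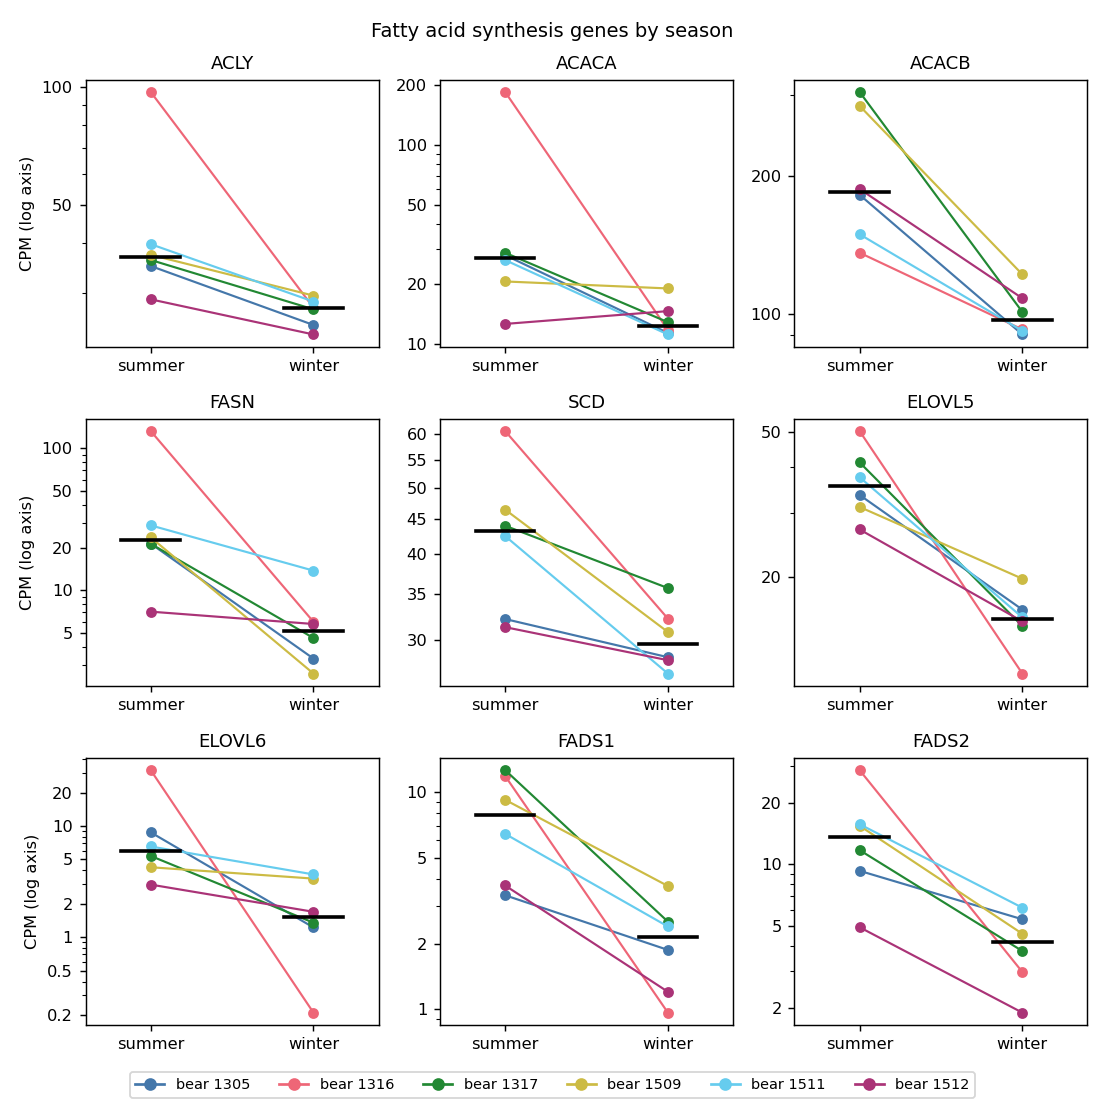
Level (CPM, logarithmic axis) of 9 fatty acid synthesis genes in summer and winter, with 1 coloured line per bear and a black bar at the median of 6 bears. Winter medians lie below summer medians in every panel; bear 1316 is the highest summer library in the panels of ACLY, ACACA, FASN, SCD, ELOVL5, ELOVL6 and FADS2, and ACACB and ELOVL5 have no overlap between seasons.

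Elongases lengthen fatty acids and desaturases add unsaturated bonds. Of these 7 genes 6 were lower in winter, each in 6 of 6 bears. ELOVL6, which lengthens palmitate to stearate, lay at 2.97, 5.96 and 31.9 CPM in summer and at 0.210, 1.52 and 3.67 in winter. Its log2 fold change of −2.39 (SE 0.64, adjusted p = 0.00894) rested in part on bear 1316, which had the highest summer and the lowest winter value, the latter from 5 reads, and was −1.31 (adjusted p = 0.0174) without it. ELOVL5, an elongase of polyunsaturated fatty acids, lay at 27.0, 35.6 and 50.4 CPM in summer and at 10.8, 15.3 and 19.8 in winter. Its seasons did not overlap, and its log2 fold change was −1.26 (SE 0.16, adjusted p = 7.36e-05), with individual bears from −2.21 to −0.65. ELOVL1, which lengthens very long saturated chains, lay at 6.30, 9.79 and 11.6 CPM in summer and at 4.91, 6.34 and 8.18 in winter. Its log2 fold change was −0.53 (SE 0.17, adjusted p = 0.0224), and the call was lost without bear 1305 (adjusted p = 0.0514), bear 1316 (0.0780) or bear 1509 (0.0757).

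FADS1 and FADS2, the desaturases that make the long polyunsaturated fatty acids such as arachidonate, moved by like amounts. FADS1 lay at 3.35, 7.82 and 12.6 CPM in summer and at 0.966, 2.14 and 3.70 in winter, a log2 fold change of −1.91 (SE 0.39, adjusted p = 0.0017). FADS2 lay at 4.93, 13.6 and 28.8 CPM in summer and at 1.89, 4.18 and 6.14 in winter, a log2 fold change of −1.80 (SE 0.37, adjusted p = 0.00187). Single bears ran from −3.51 to −0.81 for FADS1 and from −3.24 to −0.78 for FADS2, and in both genes the lowest summer library lay within the winter range. SCD, which makes monounsaturated fatty acids, lay at 31.3, 43.3 and 60.6 CPM in summer and at 26.8, 29.5 and 35.7 in winter. The log2 fold change of SCD was −0.50 (SE 0.15, adjusted p = 0.017), and without bear 1511 it was not called (adjusted p = 0.0527). FADS3, a desaturase of sphingoid bases, was the fatty acid gene that was not called: it lay at 2.08, 3.96 and 4.96 CPM in summer and at 1.88, 2.27 and 3.38 in winter, with a log2 fold change of −0.58 (SE 0.25, adjusted p = 0.073). Without bear 1317 it was called (−0.81, adjusted p = 0.0204), as it was with library totals (adjusted p = 0.0391).

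The sterol branch gave a mixed picture. Of its 17 genes 23.5% were lower and 11.8% higher, against 19.9% and 19.6% of all genes tested. Of the 7 measured genes that lead from acetyl-CoA to the isoprenoid units, HMGCS1 and FDPS were lower. HMGCS1, the cytosolic HMG-CoA synthase, lay at 45.9, 63.6 and 186 CPM in summer and at 39.2, 43.0 and 56.3 in winter. It was lower in 5 of 6 bears, with a log2 fold change of −0.81 (SE 0.29, adjusted p = 0.0378). The 186 CPM belonged to bear 1316, and the other summer libraries lay at 45.9 to 69.5 CPM. HMGCS1 was not called without bear 1316 (−0.33, adjusted p = 0.0856), without bear 1305 (adjusted p = 0.0658), bear 1511 (0.0690) or bear 1512 (0.0655), in the paired fit (0.0681) or in limma voom (0.0633). FDPS, which makes farnesyl diphosphate, varied little between bears. It lay at 21.3, 23.7 and 29.5 CPM in summer and at 15.3, 16.1 and 17.9 in winter, with no overlap and a log2 fold change of −0.56 (SE 0.10, adjusted p = 0.000629).

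The other 5 genes of these steps were not called. MVD, the decarboxylase of the pathway, had a log2 fold change of −0.53 (adjusted p = 0.129) and was called in the paired fit (adjusted p = 0.0376). MVK (mevalonate kinase) had −0.45 (adjusted p = 0.175), ACAT2 (the cytosolic thiolase of the opening step) −0.18 (adjusted p = 0.348), GGPS1 (which makes geranylgeranyl diphosphate) −0.16 (adjusted p = 0.398) and PMVK (phosphomevalonate kinase) −0.05 (adjusted p = 0.91). PMVK had the widest spread of these, from −1.53 in bear 1509 to 1.298 in bear 1317.

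Of the 3 genes from farnesyl diphosphate to lanosterol, 1 was higher, 1 lower and 1 not called. FDFT1 (squalene synthase), which commits farnesyl diphosphate to sterols, lay at 61.1, 76.2 and 85.8 CPM in summer and at 132, 146 and 192 in winter. No winter library overlapped the summer range, and all 6 bears rose, by 0.75 to 1.65. Its log2 fold change was 1.01 (SE 0.12, adjusted p = 3.75e-05), a winter to summer ratio of 2.02. SQLE (squalene epoxidase), the enzyme of the next step, lay at 2.70, 4.32 and 10.02 CPM in summer and at 1.47, 2.70 and 3.01 in winter. It was lower in 5 of 6 bears with a log2 fold change of −1.09 (SE 0.30, adjusted p = 0.0107), which was −0.68 (adjusted p = 0.0447) without bear 1316. LSS (lanosterol synthase) was not called (−0.06, adjusted p = 0.863), with individual bears from −0.66 to 1.09.

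Of the 7 measured genes from lanosterol to cholesterol, 1 was higher and 1 lower. MSMO1, which removes methyl groups from the sterol ring, lay at 8.89, 10.8 and 14.4 CPM in summer and at 13.9, 17.4 and 21.3 in winter. It rose in 6 of 6 bears with a log2 fold change of 0.61 (SE 0.15, adjusted p = 0.00527). DHCR7, the final reductase of this route, lay at 5.10, 7.47 and 17.2 CPM in summer and at 2.93, 3.28 and 4.28 in winter. It fell in 6 of 6 bears without overlap, with a log2 fold change of −1.36 (SE 0.26, adjusted p = 0.0011). TM7SF2 (sterol reductase, 0.42, adjusted p = 0.258), NSDHL (sterol dehydrogenase, 0.08, 0.707), HSD17B7 (sterol ketone reductase, −0.08, 0.797), EBP (sterol isomerase, −0.20, 0.252) and SC5D (sterol desaturase, −0.03, 0.90) were not called. A row named LOC113241107 carries the gene ID that the RefSeq table of assembly UrsArc2.0 calls IDI1, the isomerase of the isoprenoid units. It lay outside the rule for the 37 genes, at 90.0, 112 and 148 CPM in summer and at 137, 177 and 222 in winter, and was higher in 6 of 6 bears (log2 fold change 0.60, SE 0.14, adjusted p = 0.00449).

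The regulators did not share a direction. SREBF1 encodes the SREBP form tied mainly to fatty acid genes, and it had the highest log2 fold change of the 37 genes, 1.62 (SE 0.45, adjusted p = 0.0114). It lay at 2.54, 9.45 and 18.6 CPM in summer and at 5.85, 30.8 and 48.1 in winter. It rose in 5 of 6 bears, by 1.37 to 3.39, while bear 1509 went from 9.97 to 5.85 CPM. The other 5 winter libraries lay at 27.6 to 48.1 CPM, above all summer libraries. Without bear 1509 the log2 fold change was 1.86 (adjusted p = 0.00318). SREBF2, the form tied mainly to sterol genes, lay at 9.98, 19.5 and 34.0 CPM in summer and at 15.7, 18.5 and 23.0 in winter, with a log2 fold change of −0.09 (SE 0.23, adjusted p = 0.77) and 3 of 6 bears lower. The gene-level counts do not separate the isoforms of SREBF1 and do not measure the cleaved, active proteins.

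SCAP, which escorts SREBP precursors to the Golgi, had a log2 fold change of −0.02 (adjusted p = 0.934), and INSIG2, which holds SCAP back in the endoplasmic reticulum, one of 0.09 (adjusted p = 0.579). INSIG1, another retention protein and itself a known SREBP target, lay at 4.59, 8.26 and 16.6 CPM in summer and at 4.10, 5.30 and 8.002 in winter. It was lower in 4 of 6 bears with a log2 fold change of −0.73 (SE 0.27, adjusted p = 0.0444). This call was lost in the paired fit (adjusted p = 0.0586) and in limma voom (0.0736), and also without bear 1316 (−0.46, 0.170), bear 1317 (0.107), bear 1509 (0.0655) or bear 1512 (0.130).

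Both glucose-sensing factors were lower in 6 of 6 bears. MLXIPL, which encodes ChREBP, lay at 9.23, 11.997 and 18.7 CPM in summer and at 5.35, 6.22 and 8.18 in winter, without overlap. It fell by 1.03 on the log2 scale (SE 0.21, adjusted p = 0.00151), with individual bears from −1.79 to −0.27. MLXIP, the related factor MondoA that prevails in muscle, lay at 101, 119 and 125 CPM in summer and at 90.8, 95.6 and 103 in winter. Its log2 fold change of −0.26 (SE 0.08, adjusted p = 0.026) was small, and the adjusted p was 0.0528 in the paired fit and 0.0531, 0.0599, 0.100 and 0.0760 without bear 1316, 1317, 1509 or 1512.

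**Figure D3:**
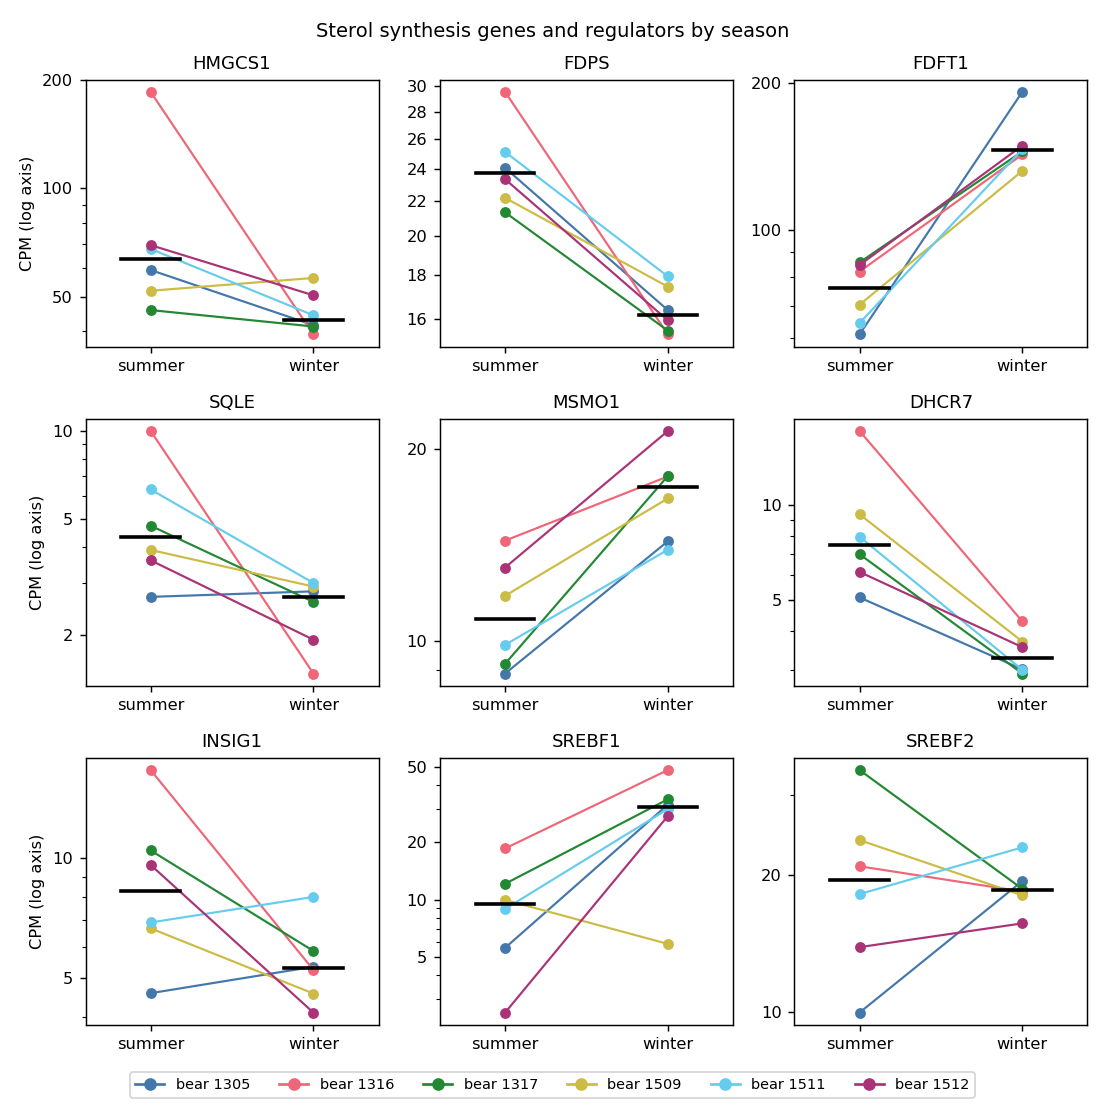
Level (CPM, logarithmic axis) of 6 sterol synthesis genes and of the regulators INSIG1, SREBF1 and SREBF2 in summer and winter, with 1 coloured line per bear and a black bar at the median of 6 bears. All lines of FDFT1 and MSMO1 rise and all lines of FDPS and DHCR7 fall, while SREBF1 rises in 5 bears and falls in bear 1509.

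For most of the 37 genes the libraries spread more in summer than in winter. For 31 of the 37 genes (83.8%) the SD of log2 CPM over the 6 bears was wider in summer, against 44.0% of all genes tested. The median SD of the 37 genes was 0.46 in summer and 0.26 in winter, and over all genes it was 0.32 and 0.35. The summer library of bear 1316 was the highest of all 12 libraries for 7 of the 13 fatty acid enzymes and for 11 of the 17 sterol enzymes. The SD without this bear was not computed. Bear 1317 had the highest library for 4 fatty acid enzymes, ACSS1, ACSS2, ACACB and FADS1, and ACACB was lowest among summer libraries in bear 1316.

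Fat cell transcripts differed widely between the libraries. Of 10 adipocyte markers tested, 6 were not called, as were 10459 of all 17290 genes tested. Of the other 4, FABP4 (a fatty acid carrier, log2 fold change −0.95), LGALS12 (a lipid droplet lectin, −3.55) and AQP7 (a glycerol channel, −1.73) were lower in winter, and LEP (leptin), at 0 in 3 summer libraries and 1 winter library, was higher. FABP4 is also made by endothelial cells and AQP7 by muscle fibres. TRARG1 was at 0 in 2 winter libraries, and the other 8 markers were above 0 in every library. The summed level of the 10 markers was 560 to 1704 CPM in summer and 273 to 533 CPM in winter. Most of the sum in each library was FABP4 (263 to 889 CPM in summer, 186 to 284 in winter) and AQP7 (98.8 to 366, 54.1 to 121). The sum is therefore mainly a measure of these 2 genes. The median log2 fold change of the 10 markers was −1.03. ADIPOQ (−0.86, adjusted p = 0.447 by edgeR) and PLIN1 (−0.93, 0.428) were among those not called. Adiponectin (ADIPOQ) lay at 348 CPM in the summer library of bear 1316 and at 13.1 to 40.1 CPM in the other summer libraries, and perilipin (PLIN1) lay at 74.4 CPM in that library. In winter ADIPOQ was highest in bear 1511, at 148 CPM against 5.67 to 41.4 CPM in the others, and FASN was also highest in this winter library. The median marker difference was −4.95 in bear 1316 and was above 0 in bears 1511 (1.04) and 1512 (1.08).

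With bears 1316 and 1511 left out together, an alternative chosen after the marker levels had been seen, 9 of the 13 fatty acid enzymes were lower and their median log2 fold change was −0.79. FASN stood at −2.17 (adjusted p = 0.00328) in these 4 bears, against −1.77 without bear 1316 alone, so leaving out bear 1511 moved the value too. ACACA (−0.64, adjusted p = 0.0912), SCD (−0.33, 0.152) and ELOVL1 (−0.47, 0.107) were not called. Of all 37 genes, 12 were lower and 3 higher. Over all genes tested, 2485 were lower and 2295 higher in this fit, against 3445 and 3386 in the main fit. In bears 1511 and 1512 the marker median was above 0. Every marker except FABP4, LGALS12 and AQP7 was higher in winter in both bears. ADIPOQ went from 39.1 to 148 CPM in bear 1511 and from 14.0 to 41.4 CPM in bear 1512. FABP4, LGALS12 and AQP7 were lower in both. The summed marker level went from 621 to 533 CPM in bear 1511 and from 560 to 369 CPM in bear 1512. This sum consists mainly of FABP4 and AQP7, which are not made by fat cells alone. All 13 fatty acid differences were below 0 in bear 1511, and in bear 1512 11 of 13 were. The part of fat cells in the seasonal differences was not tested, by this fit or otherwise.

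**Figure D4:**
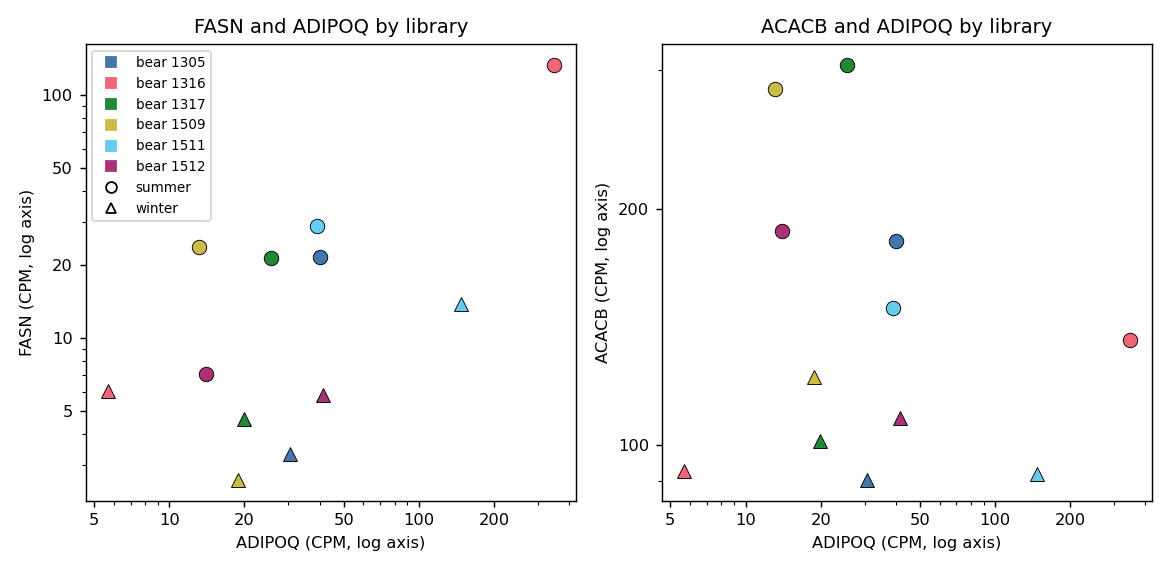
Level of FASN (left) and ACACB (right) against that of the fat cell marker ADIPOQ in each of 12 libraries (CPM, both axes logarithmic), with colours for bears, circles for summer and triangles for winter. The summer library of bear 1316 is highest for both FASN and ADIPOQ, whereas in the right panel it is the lowest of the summer libraries for ACACB and the 6 summer libraries all lie above the 6 winter libraries.

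Markers of other cells moved with season as well, where 19.9% of all genes tested were lower and 19.6% higher. Of 8 fibroblast markers 5 were lower in winter, with summed levels of 4234 to 11366 CPM in summer and 280 to 1695 CPM in winter. For 7 endothelial markers 5 were lower and 1 higher (610 to 942 CPM against 412 to 475 CPM), and 5 of 7 macrophage markers were lower (94.8 to 149 CPM against 39.99 to 78.9 CPM). Of 9 muscle fibre markers, TTN and NEB were higher and ACTA1 and MB lower. Among 8 Schwann cell markers 1, S100B, was lower, with sums of 68.1 to 121 CPM in summer and 61.7 to 166 CPM in winter, the highest in bear 1509. None of 3 red cell markers was called by edgeR, nor was any at an unadjusted p below 0.05 (3.17 to 65.7 CPM against 34.4 to 56.8 CPM). SOX10, the defining Schwann cell factor, was at 0 in 1 library and the red cell gene AHSP in 4. Their part in the levels of the 37 genes was not tested.

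Beyond the 37 genes, 22 other enzymes of both branches and their side routes were compared. In winter 9 were lower (40.9%) and 3 higher (13.6%), against 19.9% and 19.6% of all genes tested. THRSP (Spot 14), a nuclear protein of lipogenic tissues, had the lowest value of the list, −5.56 (SE 1.25, adjusted p = 0.00315). It lay at 94.9 CPM in the summer library of bear 1316, at 0.900 to 6.41 CPM in the other summer libraries and at 0.126 to 1.26 CPM in winter, and it was lower in 6 of 6 bears. Without bear 1316 its log2 fold change was −2.86. SCD5, another stearoyl-CoA desaturase, fell by 1.14 on the log2 scale, and the elongation partners HSD17B12 (−0.75) and HACD1 (−0.77) were lower too. The mitochondrial thiolase ACAT1 (−0.85), the ubiquinone side-chain synthases PDSS1 (−0.89) and PDSS2 (−0.52), and the mitochondrial fatty acid synthesis genes MCAT (−0.53) and OXSM (−0.57) made up the rest of the lower genes. The call of MCAT was lost in 4 of the 6 fits that left out a bear (highest adjusted p = 0.114, without bear 1316), and that of PDSS2 in the fit without bear 1305 (0.0585). MLYCD, which breaks down malonyl-CoA, rose from 22.4, 28.1 and 36.6 CPM to 37.7, 43.7 and 55.2, without overlap (log2 fold change 0.66, SE 0.13, adjusted p = 0.00137). The elongases ELOVL7 (0.99) and ELOVL3 (2.31, at most 25 reads in a library) were also higher in 6 of 6 bears.

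Of 9 other regulators of SREBP processing and turnover, 1 was lower (11.1%, against 19.9% of all genes tested). FBXW7, the F-box protein that marks active SREBP for degradation, stood at −0.63 (SE 0.16, adjusted p = 0.00643). Of 18 genes of sterol uptake, transport, storage and export, 3 were higher (16.7%) and 4 lower (22.2%). These shares lay near the 19.6% and 19.9% of all genes tested. The cholesterol exporter ABCA1 rose from 18.2, 25.4 and 30.8 CPM to 49.3, 79.4 and 86.0, in 6 of 6 bears and without overlap (log2 fold change 1.55, SE 0.16, adjusted p = 1.45e-05). Its partner ABCG1 rose by 0.92 (adjusted p = 0.0123) and the lipoprotein receptor LRP8 by 1.24 (adjusted p = 0.00293, at most 49 reads in a library). VLDLR, the receptor for triglyceride-rich lipoproteins, fell from 73.9, 98.2 and 120 CPM to 34.0, 39.7 and 53.3 (log2 fold change −1.24, SE 0.14, adjusted p = 3.75e-05). The lysosomal lipase LIPA (−0.79), the acyltransferase SOAT2 (−2.62, at most 39 reads in a library) and the cholesterol hydroxylase CH25H (−1.24, at most 16 reads) were lower as well. CH25H lost its call in 8 of 13 alternatives, among them the paired fit (adjusted p = 0.0565) and 5 of the 6 fits that left out a bear (up to 0.160, without bear 1316). Over these 49 other genes 6 were higher (12.2%) and 14 lower (28.6%), against 19.6% and 19.9% of all genes tested. Their median log2 fold change was −0.19.

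**Figure D5:**
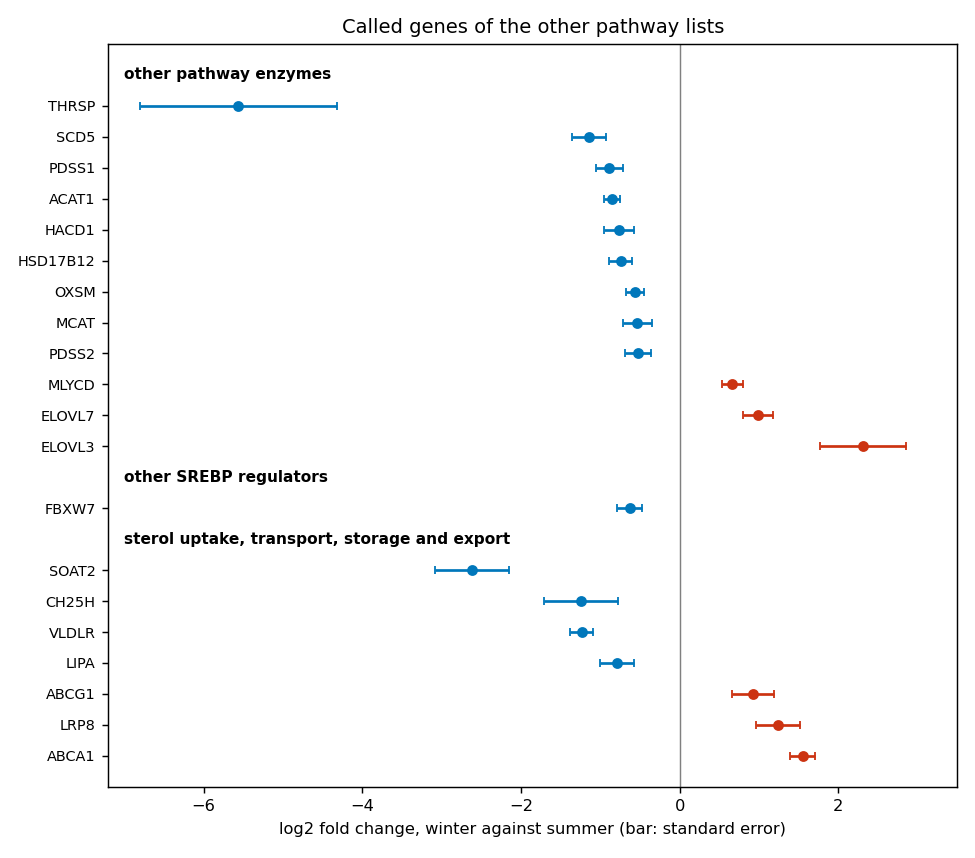
Log2 fold change, winter against summer, of the 20 called genes in the lists of other enzymes, other SREBP regulators and sterol handling, with bars of 1 standard error (SE); blue points were lower and red points higher in winter. ABCA1, LRP8 and ABCG1 lie to the right of 0 and VLDLR, LIPA, CH25H and SOAT2 to the left, and THRSP has the lowest value and the widest bar.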

How the data were processed

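Muscle RNA of 6 brown bears was measured in 12 libraries, 1 per bear in winter and 1 in summer. The authors prepared stranded libraries of poly-A RNA, sequenced single reads, aligned them to the assembly ASM358476v1 with TopHat2 2.1.1 and Bowtie2 2.2.9, and deposited counts of reads per gene from featureCounts 1.6.2 (versions from the submitters' processing notes), without normalization or filter. Lanes are not assigned in the labels, so a lane effect was not tested. No column belonged to a sample outside the series.

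From these counts, genes with fewer than 30 reads over the 12 libraries were left out (0.019% of reads), which kept 17290 of 30249 genes. Winter was compared with summer in edgeR 4.0.16 (R 4.3.3) with TMM scaling, glmQLFit and glmQLFTest, season as the only term and Benjamini-Hochberg adjustment over all genes tested. A gene was called at an adjusted p below 0.05. Differences per bear use log2 CPM with a prior count of 2. The fits were tested on simulated data. The alternatives were the bear as a replicate block, DESeq2 1.42.0 with and without it, limma 3.58.1 voom, RLE scaling, library totals, no filter, filterByExpr, stricter limits and each bear left out. Leaving out 2 bears together was added after the data had been seen.

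The study's methods state that the same bears were sampled in both seasons. After subtraction of the season means, both libraries of the same bear correlated at 0.0903 to 0.344 (6 bears), and the 30 pairs of libraries of different bears at 0.142 or less. Within a season the lowest chi-square per gene between libraries was 39.1, so none was counted as a copy. The p-values of the main fit set the season difference against the spread between the libraries of a season. They do not measure the spread of the seasonal difference within bears. Only the fits with the replicate block paired both libraries of a bear.

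The 37 genes, the other pathway lists and the marker lists were chosen with earlier results of these data known. Every gene of the 37 was named. Those called, with SREBF2, got their lowest, median and highest level, and a gene of another list was named where it was called, among the largest changes or where a result turned on it. Some genes of these lists are not reported here, and counts over the lists leave them out. The levels of FADS3 were added after its values had been seen. All 37 symbols occur in the RefSeq table of UrsArc2.0, from which no coordinate was taken since the counts use another build. Transcript lengths were not used here, so levels were not compared between genes except in the summed levels. The part of a single gene in such a sum is a share of reads, not of transcripts.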

Additional observations from a re-analysis of the deposited data

Results flagged for a closer look

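Among 74 sets of 6 libraries (37 genes in each season), 8 held a library whose gap to its nearest neighbour, divided by the range of the set, was above Dixon's 95% critical value. Chance gives about 1 in 20. The summer library of bear 1316 was the high one in 4 of them. It lay at 7.54 log2 CPM for HMGCS1 against 5.52 to 6.12 in the other bears, at 7.53 for ACACA against 3.67 to 4.85, at 6.602 for ACLY against 4.85 to 5.32, and at 2.29 for HSD17B7 against 1.14 to 1.56. The same library had the highest ADIPOQ level of the 12, 348 CPM. The winter library of bear 1509 was low for SREBF1, at 2.57 log2 CPM against 4.79 to 5.59, and for PMVK, at 1.299 against 2.59 to 3.04. It was also the library that stood apart on the second principal component. FDFT1 was high in the winter library of bear 1305, at 7.58 log2 CPM against 7.05 to 7.22, and ACSS2 in the summer library of bear 1317, at 7.62 against 6.59 to 6.98. Neither of these was set apart in other genes of the 37. The causes were not tested.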

How the results depend on the processing

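The counts of the 37 genes, 3 higher and 19 lower, stayed within 1.5 times in the fits by DESeq2, limma voom, RLE scaling, library totals, no filter, filterByExpr and the replicate block. At an adjusted p below 0.01 with a fold change above 1.3 or below 0.77, 11 were lower, and 2077 genes of all tested were higher and 2077 lower. With single bears left out, 3 to 3 of the 37 were higher and 15 to 18 lower, and 2541 to 3195 of all genes were higher and 2715 to 3300 lower. Without bears 1316 and 1511 together, 12 of the 37 were lower, and 2485 of all genes were lower and 2295 higher. With the replicate block, 17 were lower and 3 higher, and 19 of the 22 calls were shared: HMGCS1, INSIG1 and MLXIP were lost and MVD was gained, and the block changed no other call among the 37 in edgeR. DESeq2 with the block lost ACACA (adjusted p = 0.0644) and gained MVD, and without the block it gave ACACA no adjusted p. Library totals moved the median of all genes by −0.08 and added FADS3. The log2 fold changes that turned were all of genes not called. With individual bears left out they spanned −0.26 to 0.16 (PMVK), −0.30 to 0.083 (LSS), −0.18 to 0.098 (HSD17B7), −0.12 to 0.081 (SC5D), −0.25 to 0.12 (SREBF2) and −0.10 to 0.094 (SCAP). Without bears 1316 and 1511 they were 0.12 (PMVK), 0.12 (LSS) and 0.077 (SC5D). LSS stood at 0.0074 with the replicate block, 0.015 in DESeq2 with it and 0.033 in limma voom, and SREBF2 at 0.0077 in DESeq2 with the block and 0.0069 in limma voom. The causes were not tested. Depth limits ELOVL3, LRP8, SOAT2, CH25H, LEP and the winter levels of ELOVL6, THRSP and LGALS12, which rest on few reads.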
